A study of Mus musculus with 20 samples.

Results

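Purkinje cells are the output neurons of the cerebellar cortex, and a small set of genes is used to recognise them. The results below follow 9 such genes (Pcp2, Pcp4, Calb1, Ppp1r17, Slc1a6, Lhx1, Lhx5, Dner and Ebf2) across 20 arrays of mouse brain RNA. Every probe set annotated to these symbols was taken, which gave 16 of the 22626 probe sets that are not array controls, for 9 of 12393 genes. Pcp2 and Ebf2 had 3 probe sets each, Calb1, Lhx1 and Dner had 2 each, and the other 4 genes had 1. The arrays fall into 8 groups: knock-in and wild-type mice, cerebellum and forebrain, and ages of 11 and 4 weeks, with 2 arrays per group at 11 weeks and 3 per group at 4 weeks. The labels name neither the knocked-in allele nor the strain, and nothing in them says that the arrays came from separate mice, so p-values measure the spread between these arrays. The later age is 11 weeks in the descriptions and 12 in the titles.

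The region rests on the short code in each title, since the source field and the words before that code call 7 of the 10 forebrain arrays cerebellum. The description does so too for replicate 3 of knock-in forebrain at 4 weeks. The values of the genes themselves bear on this. Pcp2, whose transcript is nearly restricted to Purkinje cells within the brain, had an intensity of 27505 to 46095 on the 10 cerebellum arrays and of 83.9 to 159 on the 10 forebrain arrays (probe set 1419084_a_at). No forebrain array came near the cerebellar range. The summed intensity of 4 measured markers of forebrain pyramidal neurons was 209 to 667 on the cerebellum arrays and 11008 to 22777 on the forebrain arrays, and 0 of the 4 lay above the filter limit on every array of any cerebellum group. Array medians were 979 to 1180 and the 3′/5′ ratio of GAPDH, a measure of RNA integrity, was 0.744 to 0.903.

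Purkinje cells take in very many parallel fibre synapses and send the only output of the cerebellar cortex, and they fire continuously, which makes calcium handling and glutamate clearance central to them. Lhx1 and Lhx5 encode LIM-homeodomain transcription factors that act together in Purkinje cell differentiation, and Ebf2 encodes a transcription factor of the Ebf family that marks a subset of Purkinje cells. Calb1 encodes calbindin, a calcium buffer, and Pcp4 encodes a small calmodulin-binding peptide. Pcp2 encodes a modulator of inhibitory G-protein signalling, Ppp1r17 a substrate of cGMP-dependent kinase that inhibits protein phosphatases, and Slc1a6 the glutamate transporter EAAT4 of Purkinje cell spines. Dner encodes a membrane protein with EGF-like repeats that acts on Notch signalling in the neighbouring Bergmann glia.

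The nuclear receptor RORα is a well-studied regulator of transcription in Purkinje cells. The 250 bases upstream of the annotated start are printed from RefSeq (GRCm38.p6) for 3 members on which the results turn. Pcp2 is shown because it separated the regions most widely, and Pcp4 and Lhx1 because every knock-in cerebellum array lay below every wild-type one at both ages. The windows lie at chr8:3625548-3625797 on the minus strand (Pcp2, the most upstream of 4 windows listed for it), chr16:96467356-96467605 on the plus strand (Pcp4) and chr11:84525535-84525784 on the minus strand (Lhx1). Capitals mark AGGTCA, the core letters read by receptors of the ROR kind, or TGACCT where the match is on the opposite strand.
Pcp2: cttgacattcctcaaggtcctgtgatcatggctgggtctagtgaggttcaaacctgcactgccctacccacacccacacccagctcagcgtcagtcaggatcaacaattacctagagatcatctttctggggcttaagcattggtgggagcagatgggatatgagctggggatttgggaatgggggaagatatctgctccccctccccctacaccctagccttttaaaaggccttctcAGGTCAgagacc
Pcp4: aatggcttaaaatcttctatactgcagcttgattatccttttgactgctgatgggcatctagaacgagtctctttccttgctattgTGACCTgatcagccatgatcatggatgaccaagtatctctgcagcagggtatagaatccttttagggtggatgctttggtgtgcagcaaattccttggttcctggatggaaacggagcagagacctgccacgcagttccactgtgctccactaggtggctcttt
Lhx1: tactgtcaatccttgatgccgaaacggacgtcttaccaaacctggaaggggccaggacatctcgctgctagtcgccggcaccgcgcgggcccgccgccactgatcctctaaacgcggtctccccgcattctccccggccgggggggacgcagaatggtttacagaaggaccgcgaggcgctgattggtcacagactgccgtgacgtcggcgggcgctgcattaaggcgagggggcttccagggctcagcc
The Pcp2 window holds 1 match, whose first base lies 12 bases before the start, the Pcp4 window holds 1, whose first base lies 164 bases before it, and the Lhx1 window holds none. Windows were listed for 5 of the 9 genes, 8 windows in all, and 5 of the 8 held AGGTCA on either strand, against 14.0% of 32851 windows of the same length. Of the 5, 3 belong to Pcp2 and some of its windows overlap. The Pcp2 match 12 bases before the start is counted again in an overlapping window, where it lies 87 bases before that window's start site. The 5 windows thus do not hold 5 separate sites. TATAAA, the TATA box, was in 1 of the 8 windows and in 12.4% of all. TAATTA, the core read by homeodomain factors, was in 1 and in 4.84% of all.

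Array intensities were compared as log2(intensity + 16), which understates the differences of dim genes. A probe set was tested where it lay above the 40th percentile of the array, a median intensity of 681, on at least 2 arrays. This kept 14 of the 16 probe sets, at least 1 for each of the 9 genes, and 15627 in all. The 2 left out are both of Ebf2: 1449101_at lay at 334 to 588 in cerebellum and at 22.2 to 233 in forebrain, without overlap, and 1449102_at at 107 to 476 in cerebellum and at 8.14 to 150 in forebrain, with overlap. A probe set is called changed at a Benjamini-Hochberg adjusted p under 0.05 in limma, adjusted over all 15627. Intensities of different probe sets depend on their probes and are not set against each other.

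The wild-type regions were compared for 14 probe sets that had not entered the test alike. The 8 of Pcp2, Ppp1r17, Lhx1, Lhx5 and Ebf2 passed the filter through cerebellum arrays only, so their direction was fixed by the filter and their values are a description. The 6 of Calb1, Dner, Pcp4 and Slc1a6 lay above the limit in both regions, and 6 of these 6 were called higher in wild-type cerebellum, as 26.6% of all probe sets were. The genes differed in how much signal forebrain gave. Pcp2, Ppp1r17, Lhx1, Lhx5 and Ebf2 lay below the filter limit on all 10 forebrain arrays. Calb1, Dner, Pcp4 and Slc1a6 lay above it on 3 to 5 of the 5 wild-type forebrain arrays.

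For Pcp2, the brightest probe set, 1419085_at, read 47892 and 45678 in wild-type cerebellum at 11 weeks and 52974, 50503 and 55244 at 4 weeks. In wild-type forebrain it read 325 and 486 at 11 weeks and 423, 50.0 and 156 at 4 weeks. All the forebrain values lie below the limit, so the cerebellum was at least 75.8-fold higher by this probe set and at least 60.5-fold by 1419084_a_at. The fitted log2 differences were 7.55 ± 0.35 (SE) and 8.28 ± 0.16. Errors of differences between regions come from a fit of all 20 arrays. For genes below the limit in forebrain they mix the spreads of both regions and do not measure precision in cerebellum alone. The third probe set, 1424944_at, was dim in cerebellum too, at 741 to 1006, and was at least 1.39-fold higher there, with a fitted difference of 3.07 ± 0.31.

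Ppp1r17 read 15270 and 15510 in wild-type cerebellum at 11 weeks and 12399, 14438 and 13663 at 4 weeks. In wild-type forebrain it read 116 and 250 at 11 weeks and 140, 176 and 44.1 at 4 weeks. It was at least 22.0-fold higher in cerebellum, with a fitted log2 difference of 6.58 ± 0.36. Lhx1 (1450428_at) was at least 7.46-fold higher, with a fitted difference of 6.82 ± 0.26. It read 2338 to 5747 on the 10 cerebellum arrays and 17.2 to 82.8 on the 10 forebrain arrays. The dimmer Lhx1 probe set 1421951_at was at least 1.28-fold higher in wild-type cerebellum. It read 390 to 996 on the cerebellum arrays and 19.7 to 68.0 on the forebrain arrays. The regions did not overlap for either gene. Lhx5 was at least 1.57-fold higher in wild-type cerebellum, with a fitted difference of 1.51 ± 0.18.

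Slc1a6 read 15323 to 18132 in wild-type cerebellum and 625 to 759 in wild-type forebrain, where 3 of the 5 arrays lay above the limit. With the other forebrain readings set to the limit it was at least 23.0-fold higher in cerebellum, and the fitted log2 difference was 4.56 ± 0.10. Calb1 differed by 1.90 ± 0.07 at 1417504_at and by 2.61 ± 0.15 at 1448738_at. These are 3.72-fold and 6.10-fold for transcripts of the same gene, and forebrain interneurons are known to express calbindin. Dner differed by 1.23 ± 0.09 and 1.35 ± 0.15, and Pcp4 by 1.03 ± 0.10, a 2.05-fold difference. Ebf2 (1418494_at) had a fitted log2 difference of 0.91 ± 0.17. Its forebrain values lay below the limit on every array and its wild-type cerebellum values at or near it, so no fold is given.

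The regional separation held array by array. Every cerebellum array, knock-in or wild-type, lay above every forebrain array for 6 of the 6 probe sets above the limit in both regions, against 10.1% of all probe sets tested. Among the 8 that are dim in forebrain Lhx5 was the exception: 572.6 on knock-in cerebellum 4 weeks replicate 2 lay below 641.7 on knock-in forebrain 4 weeks replicate 2. For Pcp4 the margin was narrow, since the lowest cerebellum value, 36925 on knock-in cerebellum 11 weeks replicate 1, lay just above the highest forebrain value, 36752 on wild-type forebrain 4 weeks replicate 1. Both wild-type forebrain arrays at 11 weeks carry the conflict of labels. A fit of the wild-type arrays at 4 weeks alone, which carry none, was added after seeing the data. It gave log2 differences of 0.70 to 8.35 over the 14, all on the side of cerebellum. For the 8 that passed the filter through cerebellum only these are a description.

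**Figure D1:**
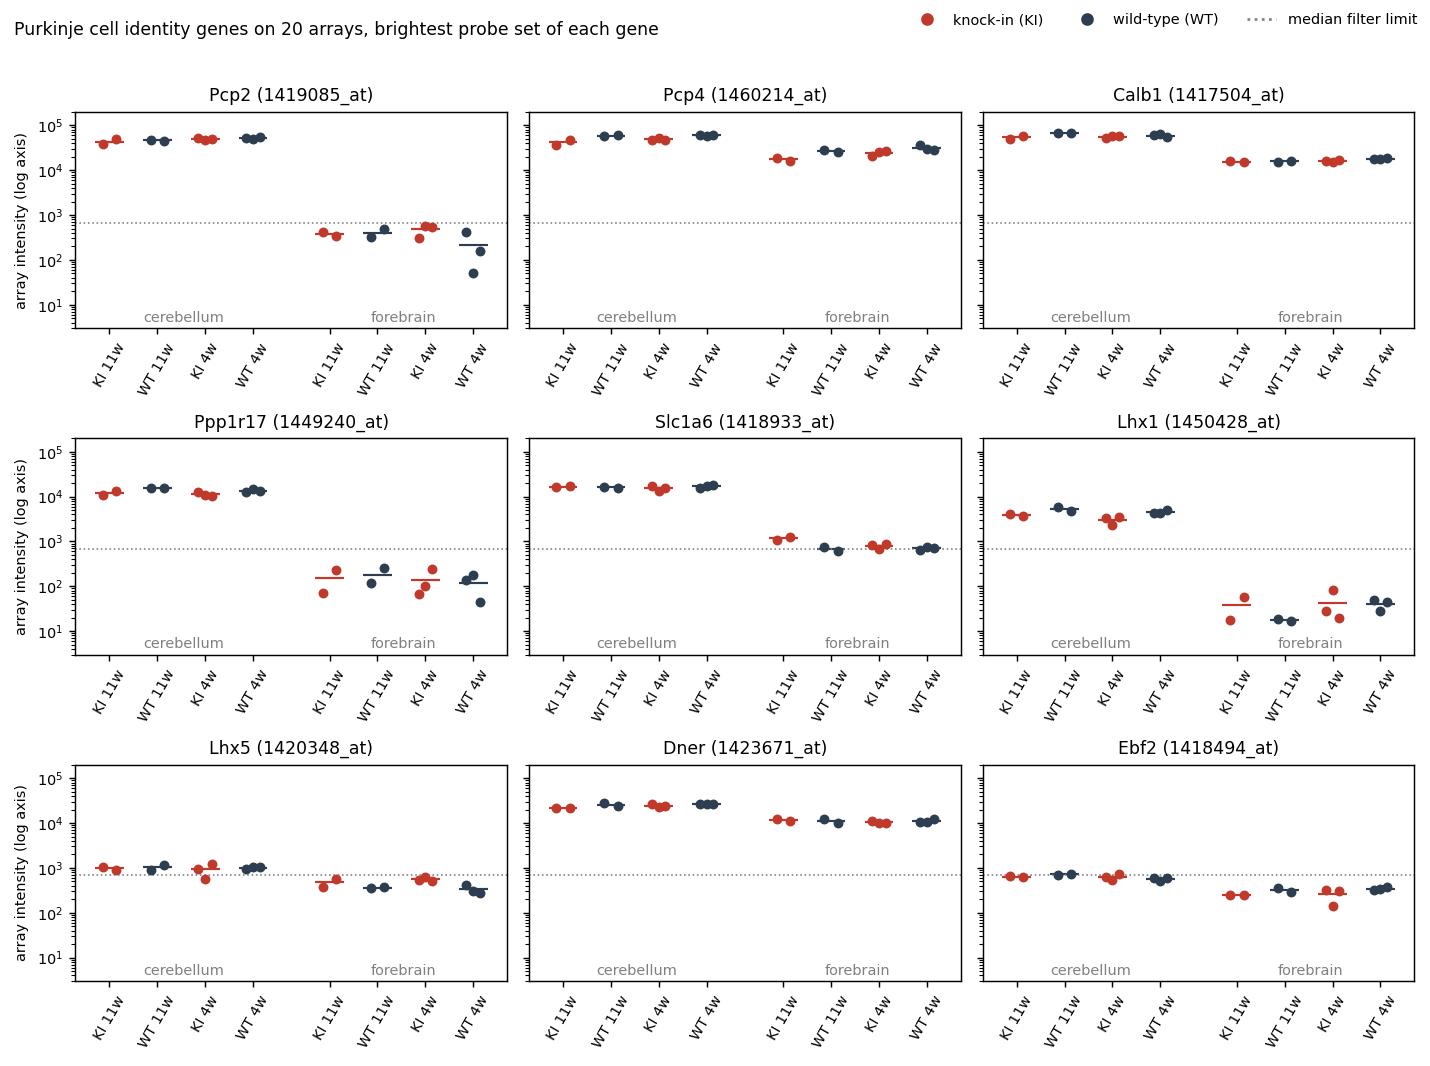
Intensity of the brightest probe set of each of the 9 genes on every array, on a log axis. Points are arrays (knock-in red, wild-type dark), short lines are group means and the dotted line is the median filter limit of 681; cerebellum groups are on the left of each panel and forebrain groups on the right. Pcp2, Ppp1r17, Lhx1 and Lhx5 lie below the limit on every forebrain array, while Pcp4, Calb1 and Dner stay above it. Ebf2 lies below it in forebrain and near or below it in cerebellum, at 503 to 724.

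The spread between arrays of a group was wider in forebrain for 7 of the 8 probe sets that lie below the limit there, all but Lhx5. For Ppp1r17 the within-group SD was 0.127 log2 units over the 10 cerebellum arrays and 0.887 over the 10 forebrain arrays. For Pcp2 (1419085_at) it was 0.117 in cerebellum and 0.852 in forebrain, and for Lhx1 (1450428_at) 0.218 in cerebellum and 0.583 in forebrain. The 6 probe sets above the limit in both regions had no common pattern. Pcp4 had 0.125 in cerebellum and 0.163 in forebrain, and Dner (1423671_at) had 0.0904 in cerebellum and 0.137 in forebrain. For Calb1 it was 0.0635 in cerebellum and 0.340 in forebrain at 1448738_at, but 0.102 in cerebellum and 0.0426 in forebrain at 1417504_at. Genotypes were therefore compared within a region, with the spread of that region alone.

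**Figure D2:**
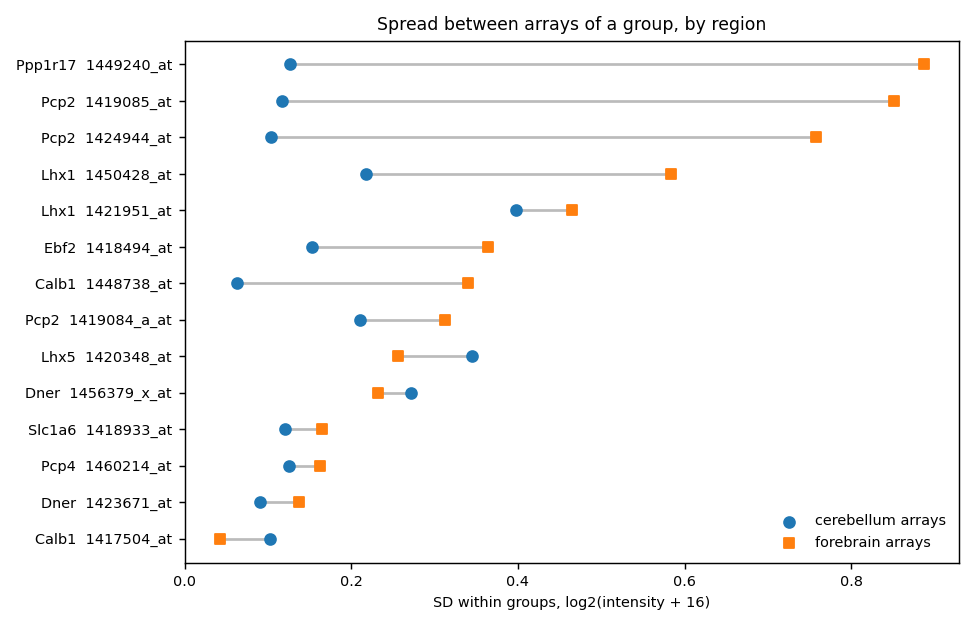
Within-group SD of log2(intensity + 16) for each tested probe set, over cerebellum arrays (circles) and forebrain arrays (squares), each with 6 residual degrees of freedom. The widest gaps belong to Ppp1r17 and Pcp2 (1419085_at), whose forebrain SDs of 0.887 and 0.852 stand against cerebellar SDs of 0.127 and 0.117.

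The comparison of genotypes in cerebellum asks whether Purkinje cell transcripts differ in knock-in mice. None of the 14 probe sets passed the threshold at 11 weeks, where 0.032% of all 15627 did, or at 4 weeks, where 0% did. None passed in the mean of both ages, where 2.25% of all did. At an unadjusted p under 0.05 the counts were 4 of 14 at 11 weeks, 3 at 4 weeks and 5 in the mean of ages, against 15.1%, 14.1% and 22.1% of all probe sets. The fitted differences nevertheless lay mostly on the knock-in side below 0: 12 of 14 at each age and 14 of 14 in the mean of ages, where 45.6% of all probe sets lay below 0. Ebf2 counts among the 14 with a difference of 0.00. Its probe set 1418494_at passed the filter only through the 2 wild-type cerebellum arrays at 11 weeks. The filter thus favoured a lower value in knock-in cerebellum at that age, and its direction there lends no support. Without that probe set 11 of 13 lay below 0 at 11 weeks, 12 of 13 at 4 weeks and 13 of 13 in the mean of ages. The median over the 14 was -0.23 at 11 weeks, -0.17 at 4 weeks and -0.18 in the mean, and that over all probe sets was 0.02, 0.03 and 0.02. Probe sets of the same gene are not independent in these counts, and with 1 probe set a gene 9 of 9 lay below 0 in the mean of ages. The members were chosen with earlier results of these data known, so these counts are a description. Single arrays moved these figures. Without knock-in cerebellum 11 weeks replicate 1, 9 of 14 lay below 0 at 11 weeks, and the 3 probe sets of Pcp2 were among those above. Without knock-in cerebellum 4 weeks replicate 2 the count was 10 of 14 at 4 weeks, with a median of -0.071, and 11 of 14 in the mean of ages. In bulk tissue, fewer Purkinje cells and less RNA per Purkinje cell cannot be told apart.

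Pcp4, the calmodulin-binding peptide, came closest to the threshold. At 11 weeks it read 36925 and 48330 in knock-in cerebellum, against 57044 and 59500 in wild-type cerebellum. At 4 weeks it read 46610, 52032 and 48072 on the knock-in cerebellum arrays, against 59733, 58202 and 61779 on the wild-type ones. At both ages the knock-in readings all stood under the wild-type readings, and knock-in 11 weeks replicate 1 was the lowest of the 10. The group means were 42628 ± 8065 in knock-in against 58272 ± 1737 in wild-type cerebellum at 11 weeks (SD, n = 2 each) and 48905 ± 2805 in knock-in against 59905 ± 1794 in wild-type at 4 weeks (SD, n = 3 each). The log2 difference in the mean of ages was -0.38 ± 0.09 (SE; 95% interval -0.59 to -0.17), a 1.30-fold lower level, with a limma adjusted p of 0.0684.

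Lhx1 was the transcription factor with the most separated values. Its probe set 1450428_at read 4017 and 3724 in knock-in cerebellum at 11 weeks, against 5747 and 4776 in wild-type. At 4 weeks it read 3345, 2338 and 3565 in knock-in cerebellum, against 4328, 4335 and 5034 in wild-type. Again no knock-in array reached the wild-type range at either age, and knock-in 4 weeks replicate 2 was the lowest. The log2 difference in the mean of ages was -0.51 ± 0.13, with an interval of -0.81 to -0.21 and a limma adjusted p of 0.0743. The second probe set, 1421951_at, gave -0.48 ± 0.22 (limma, adjusted p = 0.233) from a dimmer signal of 390 to 996, with overlapping groups at both ages. This value was -0.23 without knock-in cerebellum 11 weeks replicate 2 and -0.73 without replicate 1 of that group.

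Lhx5, the partner of Lhx1, was dim in cerebellum at 573 to 1250. It read 1022 and 918 in knock-in cerebellum at 11 weeks, against 906 and 1152 in wild-type. Its values at 4 weeks were 950, 573 and 1250 in knock-in cerebellum, against 934, 1054 and 1032 in wild-type. The groups overlapped and the log2 difference was -0.13 ± 0.19 in the mean of ages, with an interval of -0.56 to 0.30. Ebf2 (1418494_at) read 503 to 724 over the 10 cerebellum arrays, above the limit on 2, and gave 0.00 ± 0.10 with an interval of -0.23 to 0.23. A difference the size of that of Lhx1 lies within the interval for Lhx5. It lies outside that for Ebf2 1418494_at, but that probe set reads near the limit, so no absence of a difference in Ebf2 is drawn from it. The 2 Ebf2 probe sets left out by the filter are dimmer still. Fitted without a filter, they gave -0.30 ± 0.13 (1449101_at) and -0.33 ± 0.35 (1449102_at) in the mean of ages.

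Ppp1r17 read 10950 and 13388 in knock-in cerebellum at 11 weeks, against 15270 and 15510 in wild-type. At 4 weeks it read 12442, 11009 and 10573 in knock-in cerebellum, against 12399, 14438 and 13663 in wild-type. The genotypes did not overlap at 11 weeks and overlapped by a narrow margin at 4 weeks. The log2 difference in the mean of ages was -0.30 ± 0.09 (limma, adjusted p = 0.115), with an interval of -0.51 to -0.09.

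Calbindin was measured by 2 probe sets. Calb1 1448738_at read 4577 and 5025 in knock-in cerebellum at 11 weeks, against 6636 and 6319 in wild-type. The 4-week values were 5176, 5572 and 5139 in knock-in cerebellum, against 5154, 5173 and 4882 in wild-type. The groups were apart at 11 weeks and overlapped at 4 weeks. The brighter probe set 1417504_at was apart at 11 weeks as well, with 49744 and 58744 in knock-in cerebellum against 65997 and 69180 in wild-type. At 11 weeks the log2 differences were -0.43 ± 0.11 for 1448738_at and -0.32 ± 0.13 for 1417504_at, with limma adjusted p of 0.162 and 0.302. At 4 weeks they were 0.06 ± 0.09 and -0.07 ± 0.11.

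The difference between ages in the genotype difference was tested directly. For Calb1 1448738_at it was -0.49 ± 0.15 (11 minus 4 weeks; interval -0.83 to -0.16), which did not pass over all probe sets (limma, adjusted p = 0.846). None of the 14 passed, where 0% of all probe sets did, and 1 had an unadjusted p under 0.05, against 5.71% of all. For Pcp4 the difference between ages was -0.17 ± 0.19 and for Lhx1 1450428_at it was 0.15 ± 0.26. Age itself was also compared within each genotype: 0 of the 14 changed between 11 and 4 weeks in knock-in cerebellum, where 0.141% of all probe sets did, and 0 in wild-type cerebellum, where 0.0256% did. At an unadjusted p under 0.05 the counts were 0 of 14 in knock-in cerebellum and 1 of 14 in wild-type cerebellum, where Calb1 1448738_at gave 0.35 ± 0.10 (11 minus 4 weeks; limma, adjusted p = 0.341).

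Pcp2, the G-protein modulator, had overlapping groups at its bright probe sets. At 1419085_at it read 38010 and 48670 in knock-in cerebellum at 11 weeks, against 47892 and 45678 in wild-type. Its values at 4 weeks were 52074, 47776 and 49418 in knock-in cerebellum, against 52974, 50503 and 55244 in wild-type. The values of the other bright probe set, 1419084_a_at, were 39387, 33020 and 29378 in knock-in against 37964, 41049 and 46095 in wild-type cerebellum at 4 weeks. Their log2 differences in the mean of ages were -0.10 ± 0.09 and -0.26 ± 0.13, and that of 1424944_at was -0.15 ± 0.09. At 1424944_at the genotypes overlapped at 11 weeks and did not at 4 weeks, with 741 to 813 in knock-in and 883 to 1006 in wild-type cerebellum.

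Slc1a6 and Dner had no called difference in cerebellum either. Slc1a6 gave -0.06 ± 0.09 in the mean of ages, with an interval of -0.26 to 0.15, and its genotypes overlapped at both ages. Dner gave -0.18 ± 0.08 at 1423671_at and -0.08 ± 0.16 at 1456379_x_at, a probe set whose suffix marks possible cross-hybridisation. At 1423671_at the knock-in arrays read 21826 and 21646 at 11 weeks, against 27750 and 23821 on the wild-type arrays, without overlap.

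Over the 14 probe sets, every knock-in cerebellum array lay below every wild-type one for 7 at 11 weeks (22.4% of all probe sets), for 3 at 4 weeks (7.59%) and for 2 at both ages (3.87%), Pcp4 and Lhx1 1450428_at. Ebf2 1418494_at, which the filter kept for its high wild-type arrays at 11 weeks, is 1 of the 7, so 6 remain without it. Knock-in arrays lay wholly above wild-type ones for 0 of the 14 at either age, which 26.9% of all probe sets did at 11 weeks and 11.2% at 4 weeks. The low readings came from more than 1 array: knock-in 4 weeks replicate 2 and knock-in 11 weeks replicate 1 were each the lowest cerebellum array for 5 of the 14, and wild-type arrays were the lowest for 1. The highest cerebellum array was wild-type for 13 of the 14. These counts of lowest and highest arrays have no share over all probe sets beside them, and probe sets of the same gene are not independent.

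**Figure D3:**
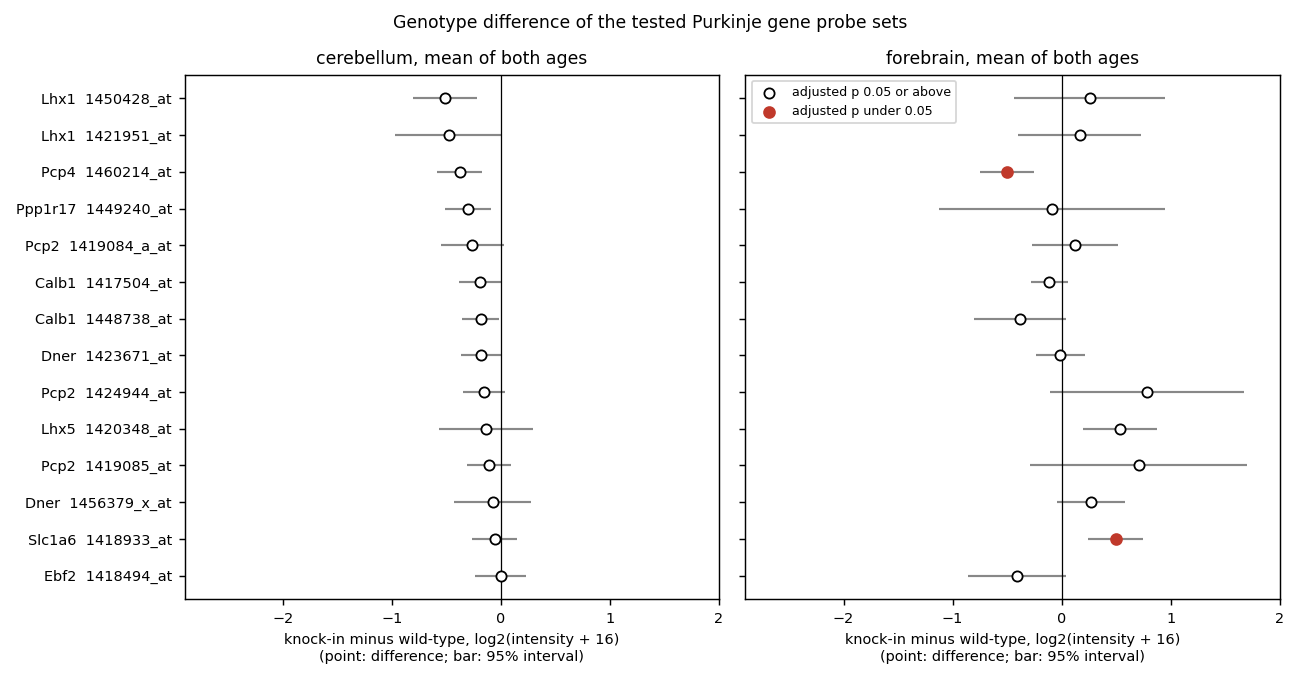
Knock-in minus wild-type difference of each tested probe set in the mean of both ages, in log2(intensity + 16) with 95% intervals, for cerebellum (left) and forebrain (right). In cerebellum all 14 points lie at or below 0 and none passed the threshold; in forebrain the 2 filled points, Pcp4 at -0.50 and Slc1a6 at 0.49, passed.

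Marker genes of other cell types were read on the same arrays. The summed intensity of the 9 Purkinje genes, by their brightest probe sets, was 179208 to 212885 in knock-in against 235664 to 238044 in wild-type cerebellum at 11 weeks, and 207747 to 212732 in knock-in against 233041 to 236802 in wild-type at 4 weeks. The sum of 9 granule neuron markers was also lower without overlap, at 231429 to 234633 in knock-in against 244334 to 251124 in wild-type at 11 weeks and 237185 to 262224 in knock-in against 269239 to 280383 in wild-type at 4 weeks. The sum of 8 microglia markers was 14919 to 15664 in knock-in against 14434 to 17231 in wild-type cerebellum at 11 weeks, with overlap, and at 4 weeks it was higher without overlap, at 15655 to 17230 in knock-in against 14385 to 15079 in wild-type. At 11 weeks alone, knock-in arrays also lay below wild-type ones for the sums of 6 oligodendrocyte markers (119648 to 124617 in knock-in against 132723 to 137299 in wild-type) and 8 Bergmann glia and astrocyte markers (79366 to 83044 in knock-in against 86104 to 96419 in wild-type). Linear sums follow the brightest genes. Taken singly, 4 of the 8 glia markers lay below 0 and 4 above at 11 weeks, with a median log2 difference of 0.01. Of the 9 granule neuron markers, 5 lay below 0 and 4 above at 11 weeks, and 6 below and 3 above at 4 weeks. At 11 weeks the sum of 3 markers of choroid plexus, a tissue that dissection can carry along, was 103010 to 108315 in knock-in against 95248 to 96068 in wild-type cerebellum, and at 4 weeks it was 41222 to 86310 in knock-in against 88332 to 96604 in wild-type. The GAPDH 3′/5′ ratio of knock-in cerebellum at 11 weeks was 0.876 ± 0.039, against 0.833 ± 0.013 for wild-type, without overlap. That of actin overlapped, at 1.09 to 1.11 in knock-in against 1.06 to 1.11 in wild-type cerebellum at 11 weeks. The part of these in the differences of the Purkinje genes was not tested.

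In forebrain, where 8.33% of all probe sets were called in the mean of ages, 2 of the 14 were called: Pcp4 was lower in knock-in mice (3.22% of all were) and Slc1a6 was higher (5.11% of all were). None of the 14 was called at 11 weeks alone (0.166% of all) or at 4 weeks alone (3.5% of all) by limma. An unadjusted p under 0.05 was reached by 2 of the 14 at 11 weeks and 3 at 4 weeks, against 14% and 23.8% of all.

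Pcp4 read 18539 and 16374 in knock-in forebrain at 11 weeks, against 27519 and 25280 in wild-type. At 4 weeks it read 20783, 25010 and 26112 in knock-in forebrain, against 36752, 29802 and 28668 in wild-type. The genotypes did not overlap at either age. The log2 difference in the mean of ages was -0.50 ± 0.11 (interval -0.75 to -0.25), a 1.41-fold lower level, with a limma adjusted p of 0.0303. Pcp4 was thereby the only probe set of the 14 whose knock-in arrays lay below the wild-type arrays in both regions and at both ages, which 0.998% of all probe sets did.

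The genotype difference of Pcp4 did not differ detectably between the regions: cerebellum minus forebrain was 0.12 ± 0.14 (interval -0.18 to 0.42; limma, adjusted p = 0.894). In descending order of mean intensity, the 8 groups of Pcp4 were wild-type cerebellum at 4 weeks, wild-type cerebellum at 11 weeks, knock-in cerebellum at 4 weeks, knock-in cerebellum at 11 weeks, wild-type forebrain at 4 weeks, wild-type forebrain at 11 weeks, knock-in forebrain at 4 weeks and knock-in forebrain at 11 weeks. Neighbours whose ranges overlapped were the wild-type cerebellum groups, the knock-in cerebellum groups, and wild-type forebrain at 11 weeks with knock-in forebrain at 4 weeks. The other neighbours were apart. For Lhx1 1450428_at the cerebellum groups ran in the order wild-type at 11 weeks, wild-type at 4 weeks, knock-in at 11 weeks and knock-in at 4 weeks, and only the wild-type pair overlapped.

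Slc1a6, the Purkinje cell glutamate transporter, was dim in forebrain, close to the filter limit. It read 1086 and 1278 in knock-in forebrain at 11 weeks, against 734 and 625 in wild-type. Its 4-week values were 855, 683 and 884 in knock-in forebrain, against 635, 759 and 698 in wild-type. The genotypes were apart at 11 weeks and overlapped at 4 weeks. The log2 difference was 0.49 ± 0.11 in the mean of ages (limma, adjusted p = 0.0317), 0.78 ± 0.17 at 11 weeks and 0.20 ± 0.14 at 4 weeks. The test of the genotype difference between regions gave -0.55 ± 0.14 (cerebellum minus forebrain; interval -0.85 to -0.25) with a limma adjusted p of 0.163, so the opposite signs in the regions were not shown to differ. None of the 14 passed that test in limma, where 0.282% of all probe sets did, and 2 had an unadjusted p under 0.05, against 9.14% of all. For the 8 below the limit on every forebrain array the test sets a signal against background, so nothing is drawn from it for them.

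Both forebrain calls depended on single arrays and on the filter. Leaving out 1 forebrain array at a time ended the call of Pcp4 in 7 of 10 cases, with an adjusted p of up to 0.114, and that of Slc1a6 in 8 of 10, with up to 0.119. Without any filter on dim probe sets both lost their calls (limma, adjusted p = 0.0675 for Pcp4 and 0.0704 for Slc1a6), and after quantile normalization Slc1a6 did (0.37, adjusted p = 0.125). The labels of knock-in forebrain 4 weeks replicate 3 conflict most. Without that array Pcp4 kept its call and Slc1a6 gave 0.46 with a limma adjusted p of 0.0544.

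Of the remaining genes in forebrain, Lhx5 read 379 and 567 in knock-in against 351 and 373 in wild-type at 11 weeks, and 533, 642 and 512 in knock-in against 423, 304 and 283 in wild-type at 4 weeks. Knock-in arrays lay above wild-type ones at both ages, as 8.47% of all probe sets did, and Pcp4 was the counterpart below at both ages, as 6.29% did. All these Lhx5 values lie below the limit, so no fold is given; the fitted difference was 0.54 ± 0.15 (limma, adjusted p = 0.0567). Calb1 gave -0.11 ± 0.08 and -0.38 ± 0.19, and Dner -0.01 ± 0.10 and 0.27 ± 0.14. Pcp2, Ppp1r17 and Lhx1 lay below the limit on every forebrain array, and their genotype differences, with SEs of 0.18 to 0.46, rest on readings of at most 579.

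**Figure D4:**
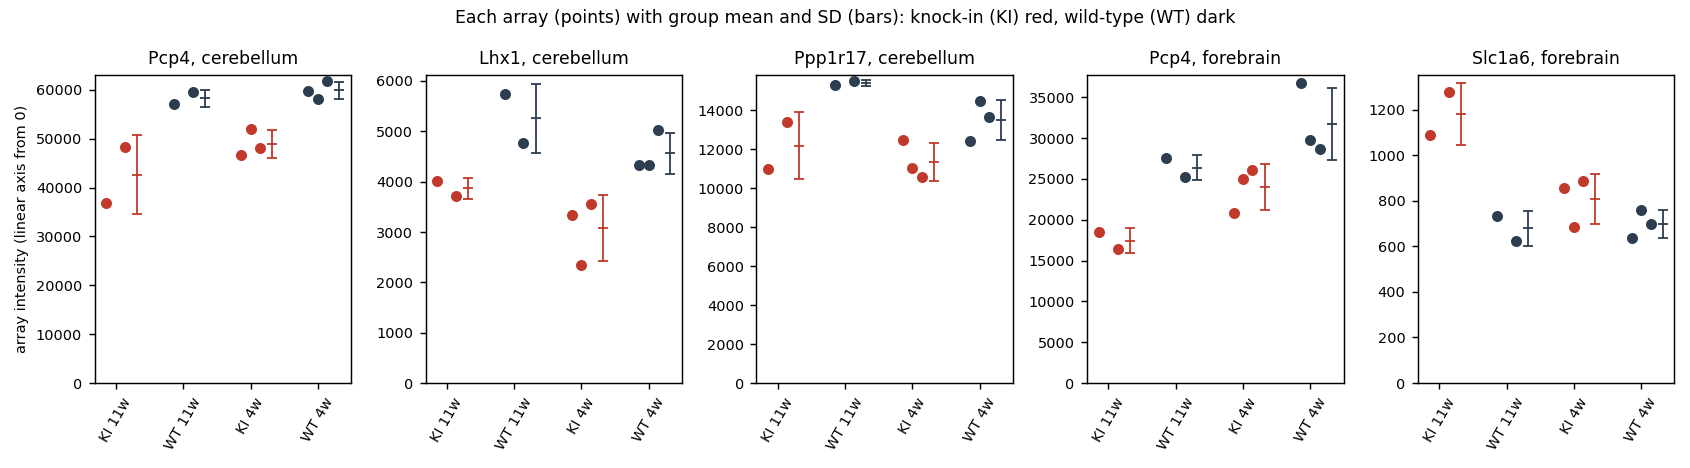
Intensity on each array, on linear axes from 0, for Pcp4, Lhx1 (1450428_at) and Ppp1r17 in cerebellum and for Pcp4 and Slc1a6 in forebrain. Points are arrays and the bars beside them show the group mean and SD (n = 2 at 11 weeks, n = 3 at 4 weeks). At each age knock-in arrays lie below wild-type arrays in both Pcp4 panels and for Lhx1, and above them for Slc1a6 at 11 weeks.

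Marker sums differed between genotypes in forebrain too. The sum of 4 pyramidal neuron markers was 11008 to 15456 in knock-in against 20005 to 22777 in wild-type forebrain at 11 weeks, and 13855 to 14797 in knock-in against 16136 to 19107 in wild-type at 4 weeks, without overlap. Camk2a led this sum, at 5659 ± 1176 in knock-in against 12656 ± 2703 in wild-type forebrain at 11 weeks. Tbr1 read 1359 ± 121 against 1431 ± 89 there. Singly, 4 of the 4 lay below 0 at 11 weeks and 3 at 4 weeks, when Neurod6 was higher in knock-in (1814 ± 175 against 1592 ± 368). At 11 weeks knock-in arrays also lay below wild-type ones for the sums of 8 Bergmann glia and astrocyte markers (34749 to 37242 in knock-in against 43515 to 43613 in wild-type forebrain) and 3 striatal neuron markers (5622 to 7024 in knock-in against 7624 to 8816 in wild-type). The striatal list does not single out forebrain on these arrays. Of its 2 tested genes, 2 were called higher in wild-type cerebellum than in wild-type forebrain (median log2 difference 0.98). The microglia sum was lower at 11 weeks, at 34701 to 38565 in knock-in against 38981 to 41513 in wild-type forebrain, and higher at 4 weeks, at 42852 to 47532 in knock-in against 38417 to 40856 in wild-type. At 4 weeks the sum of 6 oligodendrocyte markers was also higher, at 111044 to 142391 in knock-in against 109132 to 110882 in wild-type forebrain. The GAPDH 3′/5′ ratio of knock-in forebrain at 4 weeks was 0.859 ± 0.032, against 0.793 ± 0.044 for wild-type, with overlap (0.827 to 0.890 against 0.744 to 0.828). That of actin overlapped at 4 weeks, at 1.09 to 1.22 in knock-in against 1.15 to 1.23 in wild-type forebrain. At 11 weeks it was lower in knock-in, at 0.934 to 1.06 against 1.09 to 1.15, while that of GAPDH overlapped. The part of these sums and ratios in the differences of Pcp4 and Slc1a6 was not tested.

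Other genes known from Purkinje cells were read from a separate list of 20, of which 14 were on the array and 13 were tested. This list was chosen with earlier results of these data known, so its counts beside all probe sets are a description, not independent support. In cerebellum, in the mean of ages, 12 of the 13 had a difference below 0, as 45.6% of all probe sets did, with a median of -0.11. Of the 13, 3 were called lower, against 0.698% of all probe sets. Cacna1g, a T-type calcium channel, fell by 0.51 ± 0.09 (limma, adjusted p = 0.0378). Plcb3, a phospholipase C of metabotropic glutamate signalling, fell by 0.48 ± 0.09 (limma, adjusted p = 0.0409). Rgs8, a regulator of G-protein signalling, fell by 0.34 ± 0.07 (limma, adjusted p = 0.0471). These calls depended on single arrays: of 10 fits that left out 1 cerebellum array each, limma called Cacna1g in 1 and Plcb3 and Rgs8 in 0, with adjusted p of up to 0.119, 0.123 and 0.145 in that order, while the log2 differences stayed between -0.57 and -0.31. Without a filter on dim probe sets none of the 3 was called.

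Plcb4, a second phospholipase C of that pathway, gave -0.92 ± 0.20 and did not pass (limma, adjusted p = 0.052). In the separate ages limma called 0 of the 13, against 0.032% of all probe sets at 11 weeks and 0% at 4 weeks. An unadjusted p under 0.05 was reached by 6 at 11 weeks and 3 at 4 weeks, against 15.1% and 14.1% of all. The smallest p belonged to Plcb3 at 11 weeks (-0.78 ± 0.15; limma, adjusted p = 0.0918) and to Kcnma1, a calcium-activated potassium channel, at 4 weeks (0.48 ± 0.17; limma, adjusted p = 0.279). In forebrain, 3 of the 13 were lower in the mean of ages, against 3.22% of all probe sets: Rgs8 at -0.69 ± 0.10, Plcb4 at -0.94 ± 0.21 and Cacna1g at -0.44 ± 0.10. With 1 forebrain array left out, limma called Rgs8 in 10 of 10 fits, Plcb4 in 4 and Cacna1g in 2. Between wild-type regions 12 of the 13 were called higher in cerebellum, as 26.6% of all probe sets were, and Kcnma1 was lower. Plcb4 and the forebrain genes were named after their values were seen.

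Lists around single members held no gene called by limma in cerebellum in the mean of ages. The relatives of Lhx1, Lhx5 and Ebf2 among the LIM-homeobox and Ebf genes had 10 of 16 tested, with a median of 0.08. The Notch ligands, receptors and targets, set beside Dner, had 11 of 14 tested with a median of 0.16. The calcium buffers and calmodulin partners, set beside Calb1 and Pcp4, had 7 of 10 tested with a median of 0.05, and the glutamate transporters related to Slc1a6 had 4 of 5 tested with a median of 0.16. At an unadjusted p under 0.05 the counts were 3 of 10, 3 of 11, 0 of 7 and 2 of 4, in the same order, against 22.1% of all probe sets. The genes with the smallest p in each list were Lhx4 (0.66 ± 0.17; limma, adjusted p = 0.0725), Dll1 (0.40 ± 0.12), Camk4 (-0.41 ± 0.21) and Slc1a4 (0.32 ± 0.11). In forebrain 1 of these genes was called in the mean of ages, Jag2, a Notch ligand, at 0.52 ± 0.09 (limma, adjusted p = 0.0162), and it kept that call in 8 of 10 fits with 1 forebrain array left out. These 5 genes were named after their values were seen.

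The probe sets most like each member were found by the root mean square difference between the 8 group means after centring, over 14396 candidates of other single genes. Pcp4 was closest to Crhr1 (0.087 log2 units), a receptor for corticotropin-releasing hormone, and to Plcb3 (0.098). Dner was closest to Map4 (0.049), Slc1a6 to Mab21l1 (0.198) and Zic1 (0.203), and Lhx1 to Cbln3 (0.424) and Uncx (0.464). Uncx, a homeobox gene, was also closest to Ppp1r17 (0.228) and was second for Pcp2 (0.632), after Gabra6 (0.513), a GABA-A receptor subunit of granule neurons. For these genes the regional difference makes up most of the pattern, and the 8 points share arrays.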

How the data were processed

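Total RNA of 20 mouse brain samples was hybridised to single-channel arrays with Affymetrix probe set names. The table deposited by the authors holds linear array intensities. Each array's intensities, trimmed by 2%, average 2500.59 to 2500.75, so they share a common scaling. Which software made them, and whether they were normalized further, is not given in the sources used here. Of 22690 probe sets, 64 are array controls. Genes were named from the probe annotation, and all 9 members matched RefSeq by Entrez number.

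Values were tested as log2(intensity + 16) with limma 3.58.1 (lmFit, eBayes) in R 4.3.3. P-values are two-sided and adjusted by Benjamini-Hochberg over the 15627 probe sets kept. Cerebellum and forebrain comparisons were fitted on the 10 arrays of the region and those across regions on all 20, for 11 comparisons. Means over ages weight both ages equally. Errors are SEs of the model for log2 differences and SDs for intensities. The number of arrays limits the precision. The scripts were tested on simulated data. The members and gene lists were chosen with earlier results of these data known. All member probe sets are described. List genes are represented by their brightest kept probe set, and those named are called genes, at most 4, and the 1 with the smallest p at each age, with exceptions stated. Alternatives were the normalization, offset, filter, 1 probe set a gene, intensity trend, arrays in the model, a replicate block and leaving out each array.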

Additional observations from a re-analysis of the deposited data

How the results depend on the processing

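Over 154 differences of the 14 probe sets in 11 comparisons, 3365 alternative values were computed. Of these values, 109 had the opposite sign to the value reported, and 0 of these 109 were called under either setting. In cerebellum, in the mean of ages, 0 probe sets were called in the values reported, 1 after cyclic loess normalization (Lhx1 1450428_at at -0.71, adjusted p = 0.0358 by limma) and 2 with an intensity trend in the spread (Lhx1 at an adjusted p of 0.0403 and Pcp4 at 0.0295). In forebrain at 11 weeks 1 was called with all 20 arrays in 1 model (Slc1a6 at 0.78, adjusted p = 0.0295 by limma). In the mean of ages in forebrain, 2 became 1 after quantile normalization and 0 without a filter. Between regions, 9 of 9 were called with 1 probe set a gene. For genes that passed the filter through cerebellum only this count is a description. Leaving out 1 array at a time gave 0 calls for every cerebellum comparison of genotype or age. It gave 0 to 2 in forebrain at 4 weeks, where Pcp2 1419085_at (adjusted p = 0.0367) and Lhx5 (adjusted p = 0.0408) were called by limma without wild-type replicate 1, and 0 to 3 in the forebrain mean of ages. Lhx5 was called in that mean in 2 of the 10 left-out fits and with 1 probe set a gene (adjusted p = 0.0499 by limma). For these changes the cause was not tested. Replicate numbers are shared between groups in the labels, but same-numbered knock-in and wild-type arrays had correlations of -0.099 to 0.052 between their deviations, and cerebellum and forebrain arrays -0.023 to 0.113, so the numbers were not taken as pairs. With the replicate block 0 were called in the forebrain mean of ages (adjusted p of 0.0772 for Pcp4 and 0.0809 for Slc1a6 by limma), and the block changed no other count of the members. Calls over all probe sets moved more: in the cerebellum mean of ages, 351 in the values reported were 0 to 425 with 1 array left out and 3 to 589 under the other settings, and in the forebrain mean of ages 1301 were 184 to 1495 and 401 to 2108. The setting with only the arrays compared could not give another value where all 4 groups of a region enter. Readings under the filter limit, which are all those of Pcp2, Ppp1r17, Lhx1, Lhx5 and Ebf2 in forebrain, limit what can be said there.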
